A study of Homo sapiens with 6 samples.

Results

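The deposited list of USP39 binding sites held 100 dense runs. A run is 4 or more sites on the same strand, with each start at most 20 nt after the one before. These runs held 416 of the 34781 binding sites in the list (1.20%). The members were chosen by the positions of the sites themselves, so their crowding and spacing are given as a description, with no test. The list comes from 1 assay, iCLIP2, in which UV light joins a protein to the RNA it touches and the joined base is read from where the cDNA ends. Wild-type cells of the HEK293T line, which derives from human embryonic kidney, were irradiated at 254 nm, and USP39 was precipitated with an anti-USP39 antibody. RNA was taken from 2 membrane regions above the size of the protein, low and high, with 3 libraries each, all from cells of the same genotype. The sites were deposited as a single merged list, with no value per library and a score of 0 at every site, so read depth is unknown, no site has a replicate error, and the membrane regions could not be compared. Which of the libraries went into it is not given.

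USP39 belongs to the spliceosomal tri-snRNP, which carries the U4, U6 and U5 snRNAs into the spliceosome before an intron is removed. Many of the RNAs described below are small nucleolar RNAs (snoRNAs), which guide chemical modification of ribosomal and spliceosomal RNA. Most human snoRNAs are cut out of the introns of a host gene after splicing. C/D box snoRNAs (symbols SNORD) guide ribose methylation and carry their C box close to the 5' end and their D box close to the 3' end, while H/ACA box snoRNAs (SNORA) guide pseudouridylation.

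For 5 runs, RefSeq sequence around an annotated gene start (GRCh38.p14, same chromosome coordinates as the GRCh38 build of the sites) covered the run wholly or in part, and these show what a run looks like on the RNA. Capitals mark the bases of the binding sites, and each sequence reads 5' to 3' on the strand of the sites. The first 3 are small RNAs, shown as far as the start windows reach, and the last 2 are the first 30 nt of runs at the start of histone mRNAs.
VTRNA1-1, chr5:140711271-140711325, plus strand: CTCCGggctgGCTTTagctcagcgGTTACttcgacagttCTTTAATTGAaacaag
RNU7-1, chr12:6943814-6943878, plus strand: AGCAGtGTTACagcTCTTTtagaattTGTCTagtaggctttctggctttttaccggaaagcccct
SNORD121B, chr9:33934315-33934375, minus strand: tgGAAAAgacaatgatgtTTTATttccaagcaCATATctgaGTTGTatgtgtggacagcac
H2BC21, chr1:149886649-149886678, minus strand: CTTTTCTTGGctaagccgcGTTTGtactgt
H2BC5, chr6:26158121-26158150, plus strand: GATTATTTTCtcaggtgTTTGCaacagtgt

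The sites in these runs were rich in T (U in the RNA). Over the 21 run sites that lay wholly in a start window, 48.6% of 105 bases were T, 18.1% A, 17.1% C and 16.2% G. The 957 sites outside runs in such windows had 49.1% T, 8.90% A, 23.5% C and 18.5% G. All start windows together had 21.3% T. These windows reach from 250 nt before to 50 nt after gene starts, so most of their sequence lies before the gene and is an unlike baseline. The T share was close in both sets of sites and above that of the windows, and a preference for T in the bound RNAs was not tested. A was more frequent at the run sites, which come from 5 RNAs only, and no test was made. Abutting sites formed unbroken stretches, CTTTAATTGA in VTRNA1-1 and CTTTTCTTGG in H2BC21, where 10 bases in a row were covered.

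Runs were short. Of the 100 runs, 88 had 4 sites, 9 had 5, 2 had 6 and 1 had 7. Their span had a median of 37 nt and ranged from 20 to 67 nt, and the plus strand carried 54 of them against 46 on the minus strand. The run with 7 sites was in SNORD92, the next had 6 each in VTRNA1-1 and VTRNA1-2, and the runs of 5 lay in SNORD45A, SNORD18B, SNORD60, SNORD91A, SNORA79, SNORA63, STARD7, CRKL and H4C4. Most runs stood alone, since 68 of 100 had no other site on their strand within 100 nt, and the nearest site outside a run was a median of 140 nt away. Just outside the rule stood 444 trios of sites, with 1332 sites, and 24 of these trios had a further site 21 to 25 nt away. Just inside it were 10 runs that had a step of 20 nt. With steps of up to 21 nt the rule would have given 108 runs and 450 sites.

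Most neighbouring sites within a run left a gap between them, although abutting was the most frequent single step. The 316 steps between neighbouring starts had a median of 10 nt, and since each site is 5 nt wide, a step of 5 nt means that sites abut. Abutting pairs made up 58 steps, 18.4% (95% Wilson interval 14.5% to 23.0%, counting error only), and occurred in 46 runs. Among the 3872 steps within pairs and trios, 17.0% were abutting and the median was 9 nt. Steps of 14 to 20 nt were 29.1% of those in runs, against 25.4% of those in pairs and trios. The single run made of abutting sites alone was in CSNK1E, a casein kinase gene, where 4 sites covered chr22:38298281-38298300 without a gap.

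**Figure D1:**
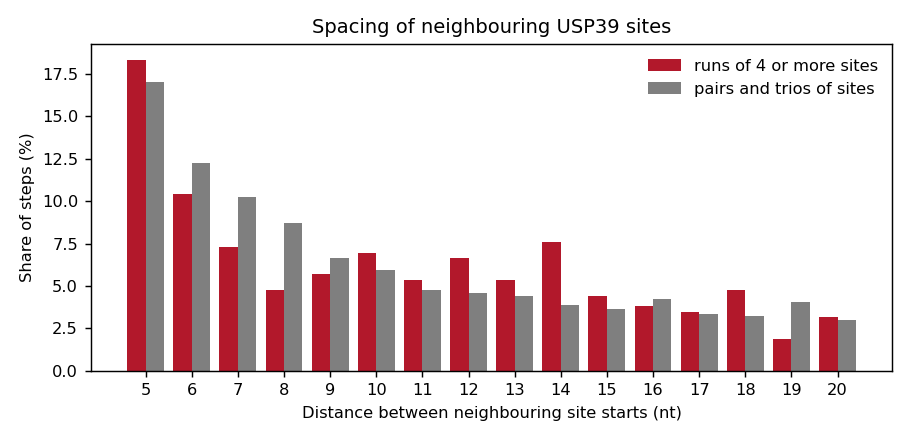
Share of steps of each length (%, vertical axis) against the distance between neighbouring site starts (nt, horizontal axis), for the 316 steps in runs and the 3872 steps in pairs and trios. Steps of 5 nt, where sites abut, were the most frequent in each set, at 18.4% and 17.0%.

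Every run lay in an annotated gene, most often in a protein-coding or a snoRNA gene. A run was placed by its midpoint, and where genes overlapped, small RNA genes came first. Protein-coding genes held 50 runs, snoRNA genes 39, lncRNA genes 6, other small RNA genes 4 and snRNA genes 1, and no run lay in a pseudogene. This split depends on how overlaps are settled, since most snoRNAs lie within a host gene. With protein-coding genes placed first, they held 80 runs and snoRNA genes 10, and with each run placed by its first site, protein-coding genes held 63 and snoRNA genes 21. The Wilson interval of the snoRNA share of runs was 30.02% to 48.8%. Counted site by site, snoRNA genes held 35.3% of the run sites, against 1.47% of the 34365 sites outside runs. For protein-coding genes the shares were 51.9% of run sites and 90.2% of sites outside runs, and for lncRNA genes 7.45% and 4.11%. For other small RNA genes they were 3.61% and 1.22%, for snRNA genes 0.962% and 0.166%, and for pseudogenes 0% and 0.870%. With so few sites in pseudogenes, the lack of a run there says little. Seen from the genes, 147 of 653 snoRNA sites (22.5%) belonged to a run, 31 of 1442 lncRNA sites (2.15%) and 216 of 31201 protein-coding sites (0.692%). Sites that stand before a snoRNA count here for its host. Sites within a run share their source, and RNA abundance was not measured, so its part in these shares was not tested. Gene length was not taken into account either, and its part was not tested. Cells without UV treatment, the study's negative control, were not analysed here, so no run is shown to exceed background.

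**Figure D2:**
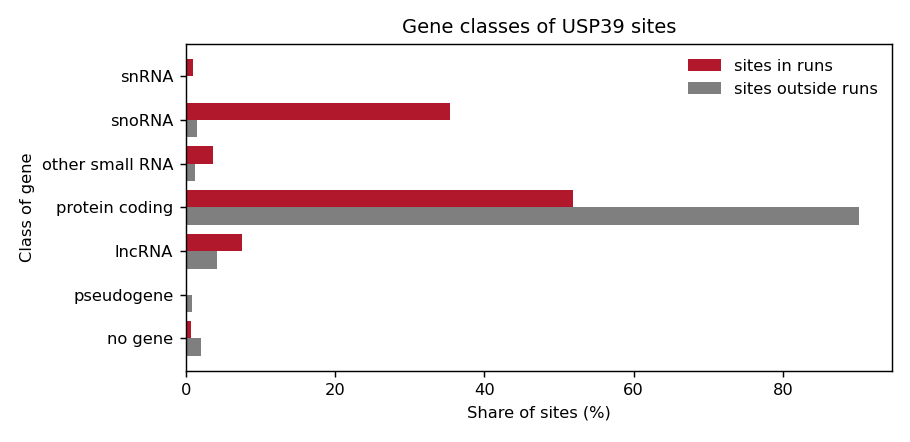
Share of sites (%, horizontal axis) by class of gene, for the 416 sites in runs and the 34365 sites outside them, with small RNA genes placed first where genes overlap. SnoRNA genes held 35.3% of run sites and 1.47% of other sites.

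The largest group of runs in noncoding RNA was that of the C/D box snoRNAs. Of 357 such genes in the table, 148 had a site, 31 had 4 or more, and 32 held a run, 21 of which were among those with 4 or more sites. The other 11 genes had fewer than 4 sites within their bounds and a run that began before the annotated 5' end. Of 182 H/ACA box genes, 97 had a site, 27 had 4 or more and 7 held a run, and 6 of these 7 were among those with 4 or more sites. The longest run, in SNORD92, an intron-encoded C/D box RNA within WDR43, covered 51 nt at chr2:28913660-28913710 with steps of 14, 5, 5, 7, 6 and 9 nt. All 7 sites of SNORD92 lay in it. In 31 of the 32 C/D box genes every site of the gene belonged to its run.

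The C/D box runs lined up at the 5' end of the RNA, where the other sites of C/D box genes lay too, as given below. With the first base of the gene as position 1 and the base before it as 0, the first site of a run was centred at a median position of 1 (range -5 to 17), and in 22 of 32 runs it lay from -2 to 2. The second site had a median position of 17 (range 5 to 34), the third 24.5 (14 to 41) and the fourth 36.5 (23 to 56). The median of the first step was 15 nt, that of the second 8 nt and that of the third 11 nt. A site centred from 14 to 21 occurred in 28 of the 32 runs. These windows of positions were chosen after the values were seen. Genes with this arrangement included SNORD77 in GAS5 (sites at 1, 15, 20 and 33), SNORD11 in NOP58 (1, 17, 27 and 41) and SNORD2 in EIF4A2 (2, 17, 24 and 37). SNORD121B, whose sequence is printed above, had its sites at 5, 21, 35 and 44. In SNORD6 the sites were closer together (1, 6, 14 and 23), and in SNORD11B the run began at 17.

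No C/D box run reached the 3' end. The last site was centred at a median position of 37 and never closer than 27 nt to the annotated end, in genes of 65 to 126 nt. In all, 107 of the 120 run sites within C/D box genes (89.2%) lay up to the midpoint of the RNA, against 226 of the 275 other sites in C/D box genes (82.2%). Positions from 41 on held 11.7% of the run sites and 24.4% of the other sites. Nearer the 5' end the 2 sets were much alike. Positions 1 to 10 held 16.7% of the run sites and 18.5% of the others, and positions 11 to 20 held 26.7% and 26.5%. The median position within the gene was 24 in runs and 23 outside them, so a place near the 5' end was not particular to runs. A further 15 run sites, 1 in each of 15 runs, were centred at position 0 or before it, so that they lay before the annotated start or across it.

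In 9 of the 26 host genes of snoRNA runs, 2 or more snoRNAs held a run each. NOP58, which encodes a core protein of C/D box particles, was host to 4 such snoRNAs, SNORD70, SNORD70B, SNORD11B and SNORD11. The gene of its partner protein, NOP56, held the runs of SNORD110 (0, 15, 21 and 26) and SNORD56 (-1, 12, 18 and 34). In the paralogues given next, the arrangement of sites differed within each pair. SNORD45A in RABGGTB had sites at 0, 20, 25, 35 and 47, and SNORD45B at 0, 11, 25 and 36. SNORD14D and SNORD14E, from introns of the chaperone gene HSPA8, had -1, 13, 19 and 37, and -5, 8, 22 and 40. Such paralogues can share reads, and how the authors placed reads that fit several copies is not given in the sources used here. SNORD13, which acts on 18S rRNA, lay in no host gene and held a run with sites at -2, 8, 16 and 36.

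**Figure D3:**
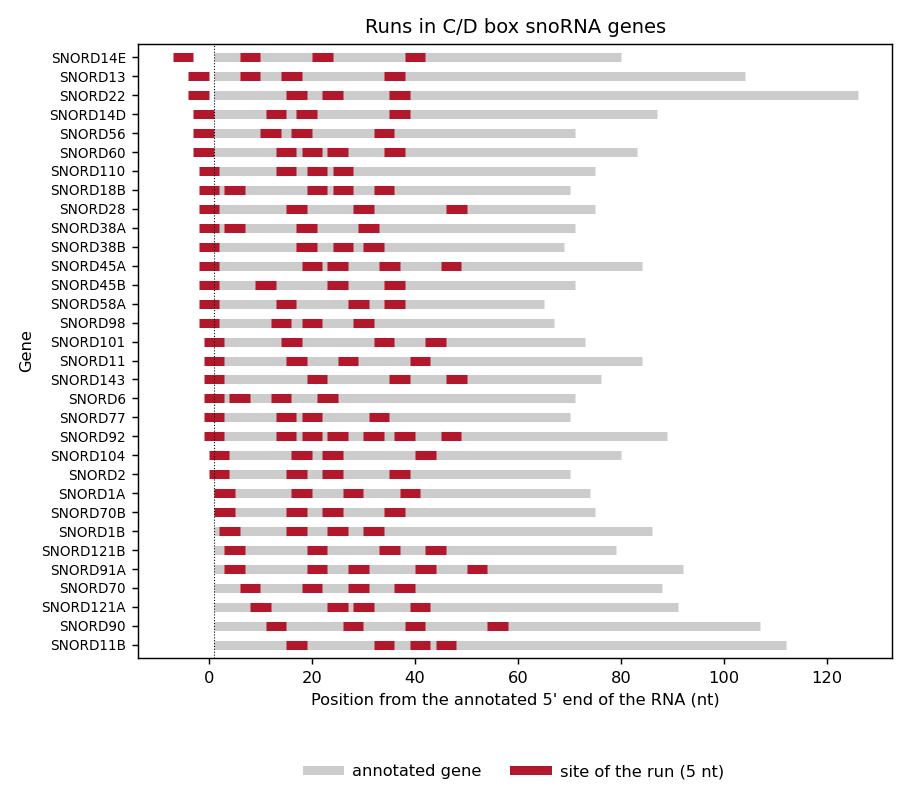
The 32 runs in C/D box snoRNA genes, 1 gene per line, with position from the annotated 5' end (nt) on the horizontal axis. Grey bars are the annotated genes and red blocks the 5-nt sites. The first site stands from -2 to 2 in 22 genes, and in each gene the centre of the last site is 27 nt or more from the 3' end.

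The 7 H/ACA box runs did not share a place. In SNORA46, SNORA50C and SNORA70 the run began at -1, -2 and -1, with further sites at 11, 30 and 47 in SNORA46, at 10, 27 and 32 in SNORA50C and at 12, 30 and 38 in SNORA70. SNORA19, in EIF3A, held its run at 23, 29, 40 and 47. The other 3 runs lay further inside the RNA, at 48 to 79 in SNORA9, at 60 to 104 in SNORA79 and at 69 to 102 in SNORA63. Of the 27 run sites within H/ACA box genes, 63.0% lay up to the midpoint, against 53.3% of the 229 other sites in H/ACA box genes. These 7 RNAs are 128 to 140 nt long.

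The vault RNAs were the other small RNAs with runs in several family members. Vault RNAs are parts of the vault, a large cytoplasmic particle, and the 3 genes with a run, VTRNA1-1, VTRNA1-2 and VTRNA1-3, are neighbours on chromosome 5. All 3 had sites at -2 and 8. VTRNA1-1 continued with sites at 22, 37, 42 and 60, over 67 nt in all, the longest span of any run. VTRNA1-2 had further sites at 25, 31, 36 and 50, and VTRNA1-3 had them at 13 and 22. The sequence of VTRNA1-1 above shows that the pair at 37 and 42 abut in CTTTAATTGA. The last site of the run was centred at 60 of 98 nt in VTRNA1-1, at 50 of 88 nt in VTRNA1-2 and at 22 of 88 nt in VTRNA1-3. These RNAs are close in sequence, so reads may be shared among them.

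Among snRNA genes, RNU7-1 alone had a run, with sites at 1, 7, 15 and 27 of a 63-nt RNA. U7 is not part of the spliceosome. It pairs through its 5' part with the 3' end of replication-dependent histone pre-mRNAs and directs their cleavage. The third site, TCTTT, lies in that 5' part, and the fourth, TGTCT, lies further on, as the sequence above shows. The RNAs of the tri-snRNP itself, U4, U5 and U6, had no run. All snRNA genes together had 61 sites, and 5 of these genes had 4 or more. The lack of a run therefore says little about U4, U5 and U6. A single tRNA gene, TRD-GTC2-11 for aspartate, had a run (chr17:8222275-8222319), in which the sites at -7 and -1 stood before the annotated gene and those at 19 and 33 in it. Nearly identical copies of this tRNA gene exist, so the place of the run is uncertain. All tRNA genes together held 0.481% of run sites and 0.730% of sites outside runs.

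**Figure D4:**
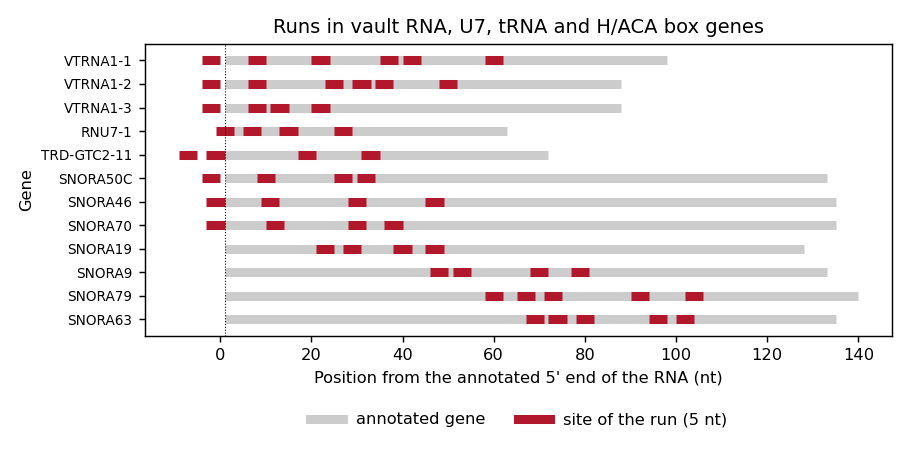
Runs in the 3 vault RNA genes, RNU7-1, a tRNA gene and the 7 H/ACA box genes, with position from the annotated 5' end (nt) on the horizontal axis. Grey bars are the annotated genes and red blocks the 5-nt sites. The vault RNAs share sites at -2 and 8, and SNORA9, SNORA79 and SNORA63 carry their runs from position 48 on.

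Most runs in small RNA genes lay within a host gene. Small RNA genes were placed first, and hosts were counted only for runs given to a small RNA gene. The count therefore does not tell where in host genes runs mostly lay. In all, 44 runs lay in small RNA genes and 42 of these had a host gene, 30 times a protein-coding gene and 12 times an lncRNA gene. Of the 16 listed noncoding host genes, 6 (GAS5, SNHG1, SNHG15, SNHG16, SNHG19 and SNHG25) held a run in a snoRNA, 8 runs in all. SNHG16 and SNHG29 held a run outside their snoRNAs, in SNHG16 at chr17:76564427-76564449 and in SNHG29 at chr17:16439033-16439058, 58 nt after its annotated start. RCC1, which encodes a nucleotide exchange factor for Ran, was given 2 runs that also lie within SNHG3, the host of SNORA73A and SNORA73B, so the transcript they come from is uncertain. These runs were 598 and 778 nt from the nearest small RNA gene. Of the 56 runs outside small RNA genes, 3 lay within 200 nt of such a gene, in RPL3 (77 nt from SNORD139), TPT1 (88 nt from SNORA31) and RPS2 (193 nt from SNORA64).

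Of the listed groups of protein-coding genes, ribosomal protein genes held the most runs. Of 86 such genes, 80 had a site and 15 held a run, with 15.6% of all run sites, against 3.61% of sites outside runs. The genes were RPL3, RPL15, RPL24, RPL28, RPL32, RPLP0, RPS2, RPS3A, RPS14, RPS15, RPS15A, RPS21, RPS24, RPS29 and RPSA. In RPS29 a run at chr14:49583642-49583677 held 4 of the gene's 12 sites, and in RPS15A a run at chr16:18784788-18784815 held 4 of 13. RPL3, with 46 sites, had 4 in its run at chr22:39316739-39316765.

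Of the 73 histone genes on the list, 39 had a site and 3 held 4 runs, with 4.09% of run sites against 0.524% of sites outside runs. H2BC5 had 2 runs, at chr6:26158121-26158159 and chr6:26158531-26158572, with 8 of its 9 sites. The first began close to the annotated start, with its midpoint 19 nt from it, and the second lay 430 nt from it. H2BC5 is annotated over 13229 nt, so these runs lay 0.147% and 3.25% along it. How much of that length the histone mRNA covers was not known here. In H2BC21 the run stood 22 nt from the start, and held 4 of 10 sites. The runs at the starts of H2BC5 and H2BC21, printed above, each opened with 2 abutting sites followed, after a gap, by TTTGC in H2BC5 and GTTTG in H2BC21. H4C4 had a run of 5 sites at chr6:26188749-26188785, 57 nt from its 3' end, with 5 of its 9 sites.

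Translation factor genes held 3 runs, in EEF1A1, EEF2 and EIF4H, of 69 genes with 46 bound. These genes had 2.9% of run sites, close to their 2.3% of sites outside runs. The hnRNP genes, whose proteins package nuclear RNA, held 2 runs in 26 genes, of which 19 had a site. Their share was 1.92% of run sites, close to 2.25% of sites outside runs. HNRNPC and HNRNPH1 had 4 sites in a run each, out of 108 and 106. Of the tri-snRNP and LSm genes PRPF8 held the only run, with 4 of its 81 sites. That list had 0.962% of run sites and 0.451% of sites outside runs. No SR protein gene (14 genes, 372 sites outside runs, 1.08% of such sites) held a run. Nor did any DEAD or DEAH box helicase gene (54 genes, 525 sites outside runs, 1.53%). Only 0.692% of all protein-coding sites belonged to a run, so few run sites would fall in lists of this size. The lack of a run in these 2 lists therefore says little about their genes. Of the 1975 protein-coding genes with 4 or more sites, 56 (2.84%) held a site of a run, against 27 of 58 snoRNA genes (46.6%) and 7 of 40 lncRNA genes (17.5%). The C/D box and H/ACA box genes with a run were 65 to 126 nt and 128 to 140 nt long, so their sites could not lie far apart. Protein-coding genes with a site had a median length of 28354 nt, and the part of gene length in this contrast was not tested.

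Runs with 5 sites in other protein-coding genes were found in STARD7, a lipid transfer protein gene (chr2:96195503-96195547), and CRKL, an adaptor protein gene (chr22:20950017-20950069). CSNK1E had 8 run sites of 70 in 2 runs. The second of them, at chr22:38291319-38291339, had steps of 5, 5 and 6 nt, so the 2 densest runs of the list, by nt per site, both lay in this gene. SORCS2, a sorting receptor gene of 550290 nt, had no site other than the 4 of its run at chr4:7582588-7582616. Among genes with 10 or more sites the share in runs was highest in H2BC21 (40%), followed by RPS29 (33.3%), RPS15A (30.8%), RPL28 (28.6%) and, at 26.7% each, RPS21 and SNHG29.

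Along protein-coding genes, runs were spread over the gene with the most in its last 10%. Of 50 runs, 13 (26%, Wilson interval 15.9% to 39.6%) had their midpoint in the last 10% of the gene and 6 (12%, interval 5.62% to 23.8%) in the first 10%. Among the 30801 sites outside runs that could be given to a single gene the shares were 24.9% and 10.6%, and among the 1514 sites outside runs of the same genes 18.4% and 12.2%. The interval of the runs holds each of these values, so a difference was not detectable with 50 runs. In nt, 9 runs (18.0%, interval 9.77% to 30.8%) lay in the last 500 nt, against 8.08% of all other sites and 6.54% of those in the same genes. Genes with a run were short, with a median length over the runs of 13229 nt, against 28354 nt over all 4342 protein-coding genes with a site outside runs, and the part of gene length in the count by nt was not tested. Exons were not known here.

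The 9 runs within 500 nt of a gene's end were in 9 genes. Their midpoints stood 73 nt from the end in SRRM2, a scaffold protein of nuclear speckles, 79 nt in PRPF8, which encodes the central protein of the spliceosome, and 85 nt in RPL24. In NPM1, which encodes a nucleolar chaperone, and RPS15 the distances were 117 and 122 nt. UBE2M, a NEDD8-conjugating enzyme gene, had its run 211 nt from the end, EEF2 had it at 227 nt and GAPDH at 396 nt, and H4C4 is given above. In SRRM2 the run covered chr16:2771323-2771356 and in NPM1 chr5:171410770-171410797. Within 1000 nt of the start stood 8 runs, 3 in H2BC5 and H2BC21, the others in RPS21 (250 nt), H4C4, RPL28 (668 nt), RCC1 (711 nt) and RPS3A (908 nt).

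**Figure D5:**
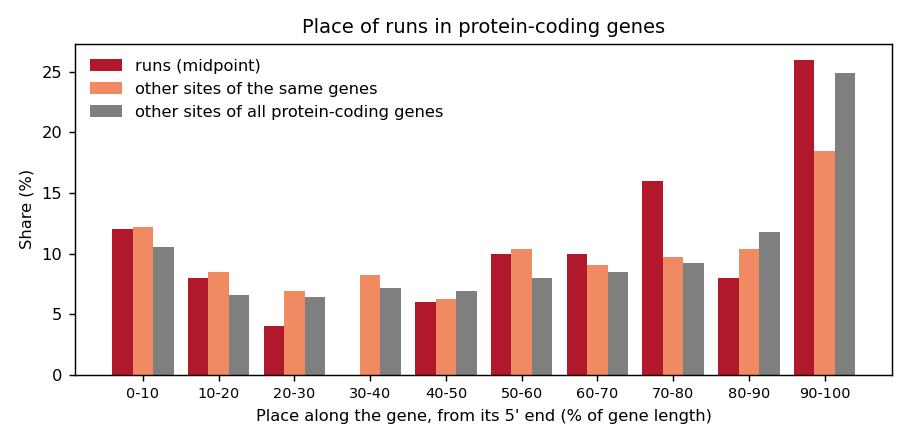
Share (%, vertical axis) in each 10% of the gene from its 5' end (horizontal axis, % of gene length), for the midpoints of 50 runs in protein-coding genes, the 1514 other sites of the same genes and the 30801 sites outside runs in all protein-coding genes. The last 10% held 26% of runs, 18.4% of the other sites of their genes and 24.9% of all other sites.

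The 6 lncRNA runs, with 4 sites each, held between 1.12% of the sites of their gene, in XIST, and 26.7%, in SNHG29. NEAT1, the scaffold of paraspeckles, had 4 of 243 sites in a run at chr11:65440926-65440953, 79.8% along the gene. MALAT1, a nuclear speckle RNA, had 4 of 91 at chr11:65501896-65501927, 47.5% along it. A run in XIST lay at chrX:73829194-73829229. The other 3 runs were those of SNHG16 and SNHG29 and 1 in the read-through locus STAG3L5P-PVRIG2P-PILRB, where the pseudogene PVRIG2P overlaps it. None of the 6 was in the last 10% of its gene. That part held 9.25% of the 1405 lncRNA sites outside runs and 11.2% of those in the same genes. The Wilson interval for 0 of 6 runs reached 39.0%, so this lack says little.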

How the data were processed

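The deposited file is a BED list of 34781 sites, each 5 nt wide, and the score that the authors deposited is 0 for every site. The build was GRCh38.p12 and the named tools were UMI-tools 1.1.2, bedtools 2.29.2, SAMtools 1.10, STAR 2.7.3a and FastQC 0.11.9, per the submitters' processing notes, which give no roles. Not given in the sources used here are the site caller, its filters and the merged libraries. Runs were found on starts sorted by chromosome and strand. Genes came from a RefSeq table (GRCh38.p14, 59716 genes with a position), and strands and sequences from RefSeq windows of 250 nt before to 50 nt after gene starts, which gave a strand for the genes they cover. Genes annotated on the other strand gave way. Then the order was snRNA, snoRNA, other small RNA, protein coding, lncRNA, pseudogene and other, with read-through loci and LOC symbols last within a class. Other genes were oriented by the strand of the site. The 95% Wilson intervals of shares of runs cover counting error alone and treat runs as independent. No test was made, since the rule chose sites by position in 1 merged list. Named genes are those with the most run sites, the longest and densest runs, noncoding genes with a run and members of the gene lists; ties at 4 sites were not ranked, and other genes were named after their values were seen. Members and lists were chosen with earlier results of these data known. The functions recovered planted runs and genes in simulated data. The scripts used matplotlib 3.10.9, scipy 1.17.1, pandas 2.3.3 and numpy 2.4.6 under Python 3.11.15.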

Additional observations from a re-analysis of the deposited data

How the results depend on the processing

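No paired analysis was possible because the merged list has no values per library, and no replicate could be left out. The counts follow from the thresholds of the rule. With steps of at most 10 nt there were 17 runs with 70 sites (0.201% of the list) in 15 genes, 76.5% of them in protein-coding and 11.8% in snoRNA genes, with 39.6% abutting steps and a median span of 27 nt. With at most 15 nt there were 60 runs with 246 sites (0.707%) in 58 genes, 30% in snoRNA genes, with 23.1% abutting steps and a span of 32 nt. With at most 30 nt there were 174 runs with 733 sites (2.11%) in 159 genes and a span of 45.5 nt. With at most 50 nt there were 345 runs with 1488 sites (4.28%) in 274 genes, 63.5% protein coding and 22.0% snoRNA, with 11.7% abutting steps and a span of 65 nt. With 3 or more sites there were 544 runs with 1748 sites (5.03%) in 396 genes, 70.2% protein coding and 17.6% snoRNA, and a span of 26 nt. With 5 or more there were 12 runs with 64 sites (0.184%) in 12 genes, 25% protein coding, 58.3% snoRNA and 0% lncRNA, with 26.9% abutting steps, a span of 50 nt, and 0% of the protein-coding runs in the first or the last 10% of the gene. With 6 or more there were 3 runs with 19 sites (0.0546%) in 3 genes, 0% protein coding and 0% lncRNA, with 25% abutting steps and a span of 57 nt. With protein-coding genes placed first, 80.0% of runs were protein coding and 10.0% snoRNA. With the run placed by its first site, which often stands before the snoRNA, the shares were 63.0% and 21.0%. In genes that overlap no other gene, 22 genes held a run. Over all 96 alternative values, 37 stayed within the interval or within 1.5 times the count. Among those were the shares at gene ends with 5% or 1000 nt as the end, and all results with the annotated strand not used, an alternative chosen after seeing the data. Depth is unknown, so the effect of sequencing depth on where runs were found was not tested.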
